A study of Mus musculus with 6 samples.

Results

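The 9 genes described here, *Mbp*, *Mog*, *Mag*, *Mobp*, *Cnp*, *Mal*, *Cldn11*, *Opalin* and *Ugt8a*, are markers of myelin and of the mature oligodendrocyte. They were taken by gene symbol from a table of raw read counts of 37310 genes, and each symbol matched 1 gene. The RNA came from whole brain of male C57BL/6 mice aged 12 weeks, with 3 independent biological replicates of each of 2 genotypes. *Adar1* E861A/E861A *Ifih1*-/- mice (E861A) are homozygous for a germline point mutation in *Adar1*, E861A, which inactivates the A-to-I editing activity of ADAR1 while the protein is still made. *Adar1*+/+ *Ifih1*-/- mice (wild type) carry the normal *Adar1* gene, and both genotypes lack MDA5, the cytosolic sensor of double-stranded RNA encoded by *Ifih1*. The question behind the comparison was which transcripts of the adult brain depend on ADAR1 editing when MDA5 is absent. The design has no animals with intact *Ifih1*.

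Myelin is the multilayered membrane that oligodendrocytes wrap around axons in the central nervous system, where it speeds conduction and supports the axon. Its layers are held together by small basic proteins at the cytoplasmic faces and by tetraspan membrane proteins, and its membrane is rich in cholesterol and galactolipids. Mature oligodendrocytes arise from progenitors through a premyelinating stage, and the SOX10, OLIG2 and MYRF transcription factors switch on many myelin genes along the way. In RNA from whole brain, fewer oligodendrocytes and less of a transcript per oligodendrocyte cannot be told apart.

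The E861A libraries held 28870314, 36285305 and 26853488 counts and the wild-type libraries 36176189, 38076753 and 35702138 counts. *Adar* was read at 151 to 169 CPM (reads of a gene per 1000000 reads counted in the library) in E861A and at 116 to 172 CPM in wild type, and a point mutation is not visible in these gene counts. *Ifih1* had 38 to 56 counts in each of the 6 libraries. One library stood apart in pituitary transcripts. The summed level of 6 pituitary hormone genes was 441 CPM in E861A replicate 1 and at most 3.34 CPM in the other libraries. Wild-type replicate 2 had the highest sum of 5 blood genes, at 226 CPM, beside 107 to 132 CPM in the other libraries. Values without E861A replicate 1 are given beside some of the results. Without it, 0 of the 9 genes were called and the median log2 fold change (E861A over wild type) of the 9 genes was 0.03. The myelin genes themselves were present in every library of the 2 genotypes. The lowest level of any of the 9 genes was 9.94 CPM, for *Opalin* in wild-type replicate 3, so all 9 genes passed the filter on low counts (2 CPM or more throughout at least 1 genotype), as did 13649 genes in all. Each reached 2 CPM in all 6 libraries.

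The 9 genes together made up 0.315% to 0.352% of all counts. Their summed level was 3365, 3426 and 3258 CPM in E861A replicates 1 to 3. In wild type it was 3212, 3523 and 3149 CPM. The genotypes therefore overlapped, with a mean of 3350 ± 84.8 CPM in E861A and 3295 ± 200.3 CPM in wild type (SD, n = 3 each). *Mbp* alone supplied 49.5% to 54.1% of the counts of the 9 genes, so this transcript weighs most in the size of the sum. It differed little between libraries (1686 to 1745 CPM), whereas *Mobp* ran from 674 to 899.8 CPM.

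To compare levels between genes, CPM were divided by the length in kilobases of all annotated exons of each gene (RPKM). *Mbp* was the most abundant with a mean of 205 RPKM over the 6 libraries, followed by *Mobp* at 122 RPKM and *Mal* at 75.0 RPKM. *Cnp* and *Cldn11* followed at 63.9 and 60.5 RPKM, *Mag* at 44.8 RPKM, *Mog* at 26.2 RPKM and *Ugt8a* at 24.7 RPKM, and *Opalin* was the lowest at 6.74 RPKM. The library ranges of *Mal* and *Cnp*, of *Cnp* and *Cldn11*, and of *Mog* and *Ugt8a* overlapped, so the order within these pairs is not set by these libraries. The other neighbours were separated in all 6 libraries. The widest step was the last, with *Ugt8a* 3.66-fold above *Opalin*. These values use the summed exons of all isoforms, which for *Mbp* come to 8403 bases, and a gene with long exons that brain does not use would read low on this scale.

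**Figure D1:**
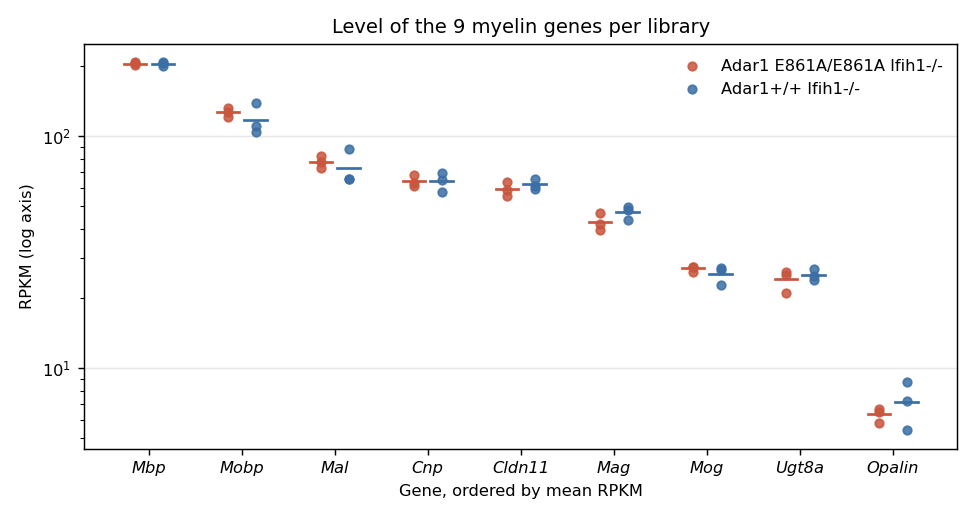
Level of each of the 9 myelin genes in every library, in reads per kilobase of annotated exon, scaled to the library total (RPKM, log axis), with genes ordered by their mean; points are libraries and short lines are genotype means (n = 3 each). The genes span from 205 RPKM for *Mbp* to 6.74 RPKM for *Opalin*, and at every gene the points of the 2 genotypes overlap.

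None of the 9 genes passed the threshold between the genotypes in edgeR's quasi-likelihood test with Benjamini-Hochberg adjustment over all genes tested. Across the transcriptome this test called 69 of 13649 genes at an adjusted p-value under 0.05, or 0.506%, of which 56 were higher in E861A (0.41%) and 13 were lower (0.0952%). A count of 0 among 9 genes is near this background. limma-voom and DESeq2 on the same libraries also called 0 of the 9. At an unadjusted p-value under 0.05 in edgeR, 0 of the 9 genes passed, beside 9.01% of all genes tested. The count of 0 turned on *Mag*, which lay just above this limit. It was 1 with either other scaling, with filterByExpr, with the replicate block and in DESeq2, and 2 with no filter on low counts. Over all genes tested, this count was 1107 and 1235 of 13649 with the other scalings and 1575 of 19366 with filterByExpr. It was 2079 of 13649 with the block, 879 of 13649 in DESeq2 and 2275 of 29282 with no filter. For all 9 genes the CPM of the genotypes overlapped, while 13.8% of all genes tested had no overlap. The fitted log2 fold change (E861A over wild type) was negative for 4 of the 9 genes and positive for 5, with a median of 0.0013 against -0.001 over all genes tested. The 95% intervals bound the differences that these libraries leave room for: the lowest bound over the 9 genes was 0.728-fold (*Opalin*) and the highest 1.23-fold (*Mal*).

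*Mbp* and *Mobp* encode the basic proteins that lie between the cytoplasmic faces of compact myelin. *Mbp* (ENSMUSG00000041607) was at 1727, 1745 and 1697 CPM in E861A and at 1739, 1744 and 1686 CPM in wild type. Both genotypes had a mean of 1723 CPM, with an SD of 24.5 in E861A and 32.1 in wild type (n = 3 each). The lowest and the highest library differed by a factor of 1.03, and the log2 fold change was 0.00 ± 0.05 (SE, 95% interval -0.10 to 0.11, edgeR adjusted p = 0.996). It was the most tightly measured of the 9 genes, and an interval of 0.93-fold to 1.08-fold is the narrowest among them.

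*Mobp* (ENSMUSG00000032517; chr9:120058860-120090602 in mm9, plus strand) was at 859.9, 823 and 785 CPM in E861A and at 674, 899.8 and 715 CPM in wild type. The wild-type libraries spread more widely than those of E861A, and wild-type replicate 2 was above every other library. Means were 823 ± 37.4 CPM in E861A and 763 ± 120.2 CPM in wild type (SD, n = 3 each). The log2 fold change was 0.11 ± 0.09 (SE, 95% interval -0.08 to 0.30, edgeR adjusted p = 0.751). Without wild-type replicate 2 it was 0.26 (edgeR adjusted p = 0.0668).

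*Mal*, a raft-associated proteolipid that sorts membrane proteins into myelin, followed *Mobp* closely. It (ENSMUSG00000027375; chr2:127458962-127482431, minus strand) was at 216, 228 and 202 CPM in E861A and at 181, 244 and 181 CPM in wild type. The same wild-type library was the highest and the other wild-type libraries were the lowest of the 6. Means were 215 ± 13.1 and 202 ± 36.3 CPM (SD, n = 3 each), and the log2 fold change was 0.09 ± 0.10 (SE, 95% interval -0.12 to 0.30, edgeR adjusted p = 0.817). Of the 9 genes, *Mal* alone had a call that depended on which libraries entered: without wild-type replicate 2 the log2 fold change was 0.26 and the edgeR adjusted p was 0.0476, so that *Mal* then counted as higher in E861A. The level of *Mal* relative to *Mobp* hardly moved between libraries. *Mal* CPM were 25.1%, 27.7% and 25.7% of *Mobp* CPM in E861A and 26.8%, 27.1% and 25.3% in wild type.

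*Cnp* and *Cldn11* belong to the non-compact regions and the junctions of the sheath. *Cnp* (ENSMUSG00000006782; chr11:100436218-100453043, plus strand), a phosphodiesterase of the cytoplasmic channels of myelin, was at 229, 248 and 222 CPM in E861A and at 235, 253 and 209 CPM in wild type. In both genotypes replicate 2 was the highest and replicate 3 the lowest. The means of 233 ± 13.4 and 232 ± 22.15 CPM (SD, n = 3 each) gave a log2 fold change of 0.01 ± 0.07 (SE, 95% interval -0.14 to 0.15, edgeR adjusted p = 0.989). Exons of *Cnp* share 154 bases with *Dnajc7* on the opposite strand, which had 2175 to 3114 counts per library. As the strand setting of the counting was not stated, it is not known how reads of this stretch were counted.

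*Cldn11* (ENSMUSG00000037625; chr3:31048868-31063246, plus strand), the claudin that forms the tight junctions between myelin lamellae, was at 102, 117 and 108 CPM in E861A and at 113, 121.0 and 109 CPM in wild type. Each E861A library lay below the wild-type library of the same number, but the ranges overlapped. The labels do not say what libraries of the same number share. Means were 109 ± 7.87 and 114 ± 6.17 CPM (SD, n = 3 each). The log2 fold change was -0.07 ± 0.06 (SE, 95% interval -0.20 to 0.07, edgeR adjusted p = 0.801).

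*Mag* and *Mog* are immunoglobulin-like glycoproteins at opposite surfaces of the sheath. *Mag* (ENSMUSG00000036634; chr7:31684202-31699851, minus strand), an adhesion molecule of the innermost layer next to the axon, was at 101, 113 and 95.9 CPM in E861A and at 120.4, 117 and 105 CPM in wild type. Here too E861A was the lower library at each replicate number, while E861A replicate 2 exceeded wild-type replicate 3. The numbers are not known to mark pairs of animals. Means were 103 ± 8.59 and 114 ± 7.85 CPM (SD, n = 3 each). The log2 fold change was -0.14 ± 0.07 (SE, 95% interval -0.28 to 0.0001), with an unadjusted p of 0.0501 and an adjusted p of 0.554 in edgeR. Without E861A replicate 1 it was -0.11, with an unadjusted p of 0.146 in edgeR. When the replicate number was added to the model as a block, the edgeR adjusted p was 0.141, the smallest of the 9 genes and still not a call.

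*Mog* (ENSMUSG00000076439; chr17:37147691-37160343, minus strand), the glycoprotein of the outermost surface of the sheath, was at 44.4, 46.7 and 46.4 CPM in E861A and at 45.1, 46.1 and 38.7 CPM in wild type. Wild-type replicate 3 lay below the other libraries, which were close together. Means were 45.8 ± 1.26 and 43.3 ± 4.01 CPM (SD, n = 3 each), and the log2 fold change was 0.08 ± 0.07 (SE, 95% interval -0.06 to 0.23, edgeR adjusted p = 0.751).

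*Ugt8a* encodes the galactosyltransferase that makes galactosylceramide, the characteristic lipid of myelin. *Ugt8a* (ENSMUSG00000032854; chr3:125568277-125641468, minus strand) was at 75.8, 93.4 and 90.5 CPM in E861A and at 89.2, 85.9 and 95.6 CPM in wild type. E861A replicate 1 was the lowest library and the other 5 overlapped. Means were 86.5 ± 9.46 and 90.2 ± 4.93 CPM (SD, n = 3 each), with a log2 fold change of -0.06 ± 0.08 (SE, 95% interval -0.22 to 0.11, edgeR adjusted p = 0.860). The sign of this difference rested on E861A replicate 1, the library with pituitary transcripts: without it the log2 fold change was 0.04. The part of the pituitary signal in this value was not tested.

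*Opalin* (ENSMUSG00000050121; chr19:41136964-41151603, minus strand), a transmembrane sialoglycoprotein restricted to oligodendrocytes, was the least abundant and most variable of the 9 genes. It was at 10.7, 11.9 and 12.3 CPM in E861A and at 16.1, 13.3 and 9.94 CPM in wild type. The E861A values lay inside the range of wild type. Means were 11.6 ± 0.842 and 13.1 ± 3.07 CPM (SD, n = 3 each), and the log2 fold change was -0.17 ± 0.13 (SE, 95% interval -0.46 to 0.12, edgeR adjusted p = 0.742). Its interval spans 0.578 log2 units, the widest of the 9 genes.

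**Figure D2:**
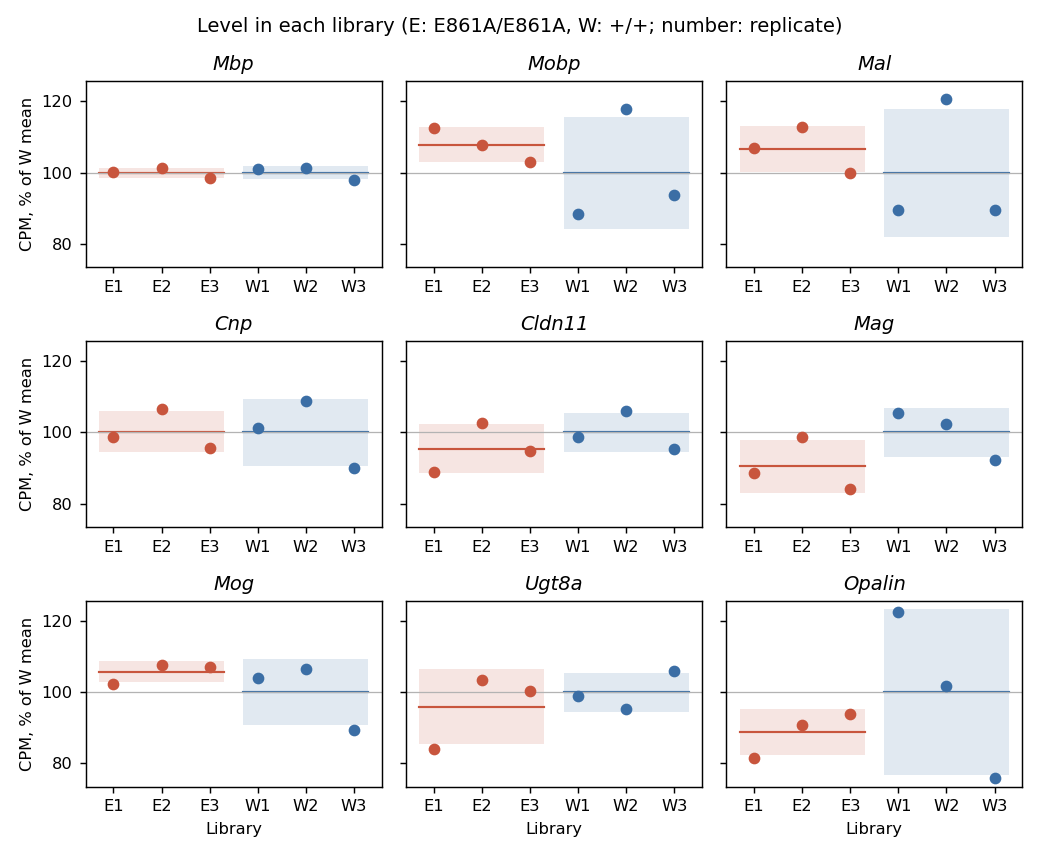
CPM of each myelin gene per library, as a percent of the wild-type mean (E, E861A; W, wild type; digits are replicate numbers); horizontal lines are genotype means and shaded bands their SD (n = 3 each), and the vertical axis does not start at 0. *Mbp* is nearly flat, *Mobp* and *Mal* peak together at W2, and *Opalin* ranges most within wild type.

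**Figure D3:**
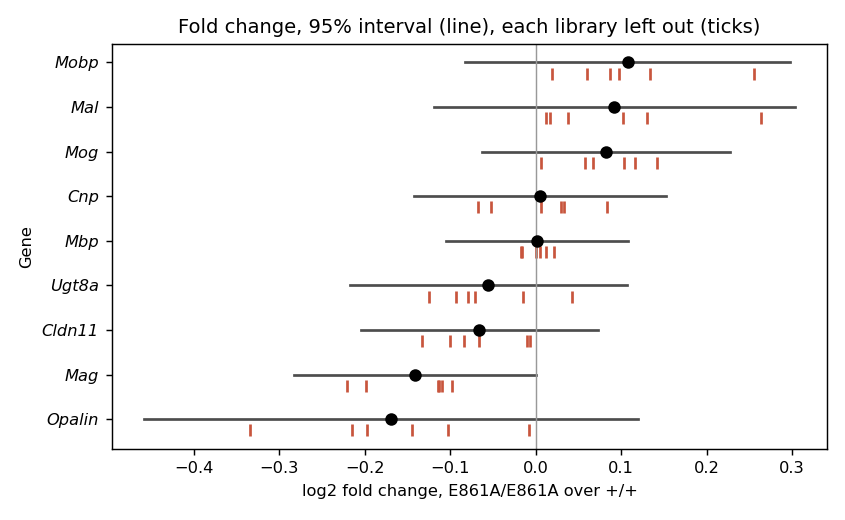
Fitted log2 fold changes (E861A over wild type) of the 9 myelin genes from edgeR; points are estimates from all 6 libraries, horizontal lines 95% intervals and red ticks the estimates with each library left out in turn. All intervals include 0, that of *Mag* ends at 0.0001, and the rightmost ticks of *Mobp* and *Mal* (0.26 each) are those without wild-type replicate 2.

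The spread between replicates differed widely among the 9 genes. The SD of log2(CPM + 0.5) within genotypes was 0.024 for *Mbp*, and 2.08% of all genes tested had a smaller one. It was 0.162 for *Mobp*, 0.186 for *Mal* and 0.248 for *Opalin*, which placed them above 88.1%, 92.3% and 97.5% of all genes tested. The remaining 5 genes lay above 57.3% to 77.5% of genes. The median over all genes tested was 0.0819, and over the 9670 genes with a mean of at least 10 CPM it was 0.0691. For *Mobp*, *Mal* and *Opalin* the larger part of this spread came from wild type, with coefficients of variation of 15.8%, 17.98% and 23.4% there against 4.55%, 6.10% and 7.23% in E861A.

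Within each genotype, most of the 9 genes were highest in the same library, but the highest of all 6 libraries differed between genes. It was wild-type replicate 2 for 4 genes, E861A replicate 2 for 2, wild-type replicate 1 for 2 and wild-type replicate 3 for 1 (*Ugt8a*). Replicate 2 was the highest library of its genotype for 7 of the 9 genes in E861A and for 6 in wild type. Replicate 3 was the lowest for 5 genes in E861A and for 7 in wild type. The shares over all genes tested were not counted, so these counts do not set the 9 genes apart. When each gene was standardised over the 6 libraries and the 9 profiles were averaged, the mean level was 0.83 SD units in wild-type replicate 2 and 0.61 in E861A replicate 2, and it was -0.87 in wild-type replicate 3. The genotypes were interleaved on this scale, with E861A replicates 1 and 3 at -0.42 and -0.32 and wild-type replicate 1 at 0.17.

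Pairs of genes also varied together to different degrees. Of the 36 pairs, 28 had a positive Pearson's r of log2(CPM + 0.5) over the 6 libraries, with a median of 0.48. All genes share the same 6 libraries and their depths, and a description over 6 points is coarse. The closest pairs were *Mobp* with *Mal* (r = 0.94) and *Mbp* with *Cnp* (r = 0.94). *Ugt8a* differed from the rest: its r was negative with *Mbp*, *Mog*, *Mobp*, *Cnp* and *Mal*, and the lowest of all pairs was *Mobp* with *Ugt8a* (r = -0.52). The levels of the other 8 genes relative to *Mbp* overlapped between genotypes in every case. *Mobp* was at 46.3% to 49.8% of *Mbp* CPM in E861A and at 38.8% to 51.6% in wild type, and *Mag* was at 5.65% to 6.46% and at 6.25% to 6.92%.

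**Figure D4:**
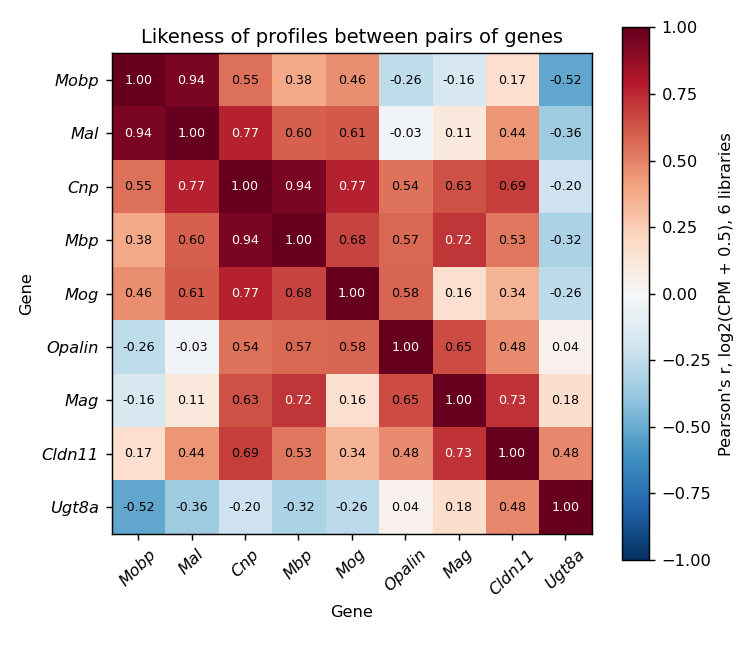
Pearson's r between the profiles of each pair of myelin genes over the 6 libraries, from log2(CPM + 0.5); red cells are positive and blue cells negative. The 2 darkest cells off the diagonal are *Mobp* with *Mal* and *Mbp* with *Cnp* (0.94 each), and the row of *Ugt8a* holds most of the negative values.

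Outside the 9 genes, the transcripts whose profile over the 6 libraries was most like their mean standardised profile were *Vps28* (r = 0.99), *Gm9844* (0.99), *Klhl5* (0.98), *Gipc1* (0.97), *Cnpy2* (0.97), *Atic* (0.96), *Taldo1* (0.96), *A830039N20Rik* (0.96), *Extl2* (0.95) and *Pfn4* (0.95). None of these 10 was on a list of oligodendrocyte lineage genes. *Vps28*, for example, ran at 22.9, 25.3 and 23.1 CPM in E861A and at 24.5, 26.2 and 22.2 CPM in wild type, so that its peaks also fell on replicate 2. Of 62 other lineage genes tested, 2 were among the 100 most alike of 13640 genes, namely *Cspg4* (r = 0.86), a proteoglycan of progenitors, and *Bcas1* (r = 0.86), a marker of premyelinating cells. That is 3.23% of the lineage genes, against 0.733% of all genes, but it rests on 2 genes at ranks 82 and 98, and the count was 0 without E861A replicate 3, wild-type replicate 1 or wild-type replicate 3. The median r was 0.24 for the lineage genes and -0.13 for all genes.

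The proximal promoters of the genes were examined for short motifs of the factors that drive the lineage, to show what sequence these transcripts start from. RefSeq start sites of the GRCm38.p6 build gave windows of 300 bases (250 before and 50 after the start) for *Mog*, *Mag*, *Mobp*, *Cnp*, *Mal*, *Cldn11*, *Opalin* and *Ugt8a*, with 3 alternative windows for *Mag* and so 10 in all. These coordinates belong to another build than the mm9 positions above. Both strands were searched for ACAAAG and ACAATG (SOX proteins), CTGGCAC and CTGGTAC (MYRF), CAGATG and CAGCTG (E-boxes) and TATAAA. Windows of 4 genes are shown because they hold the SOX motif, and that of *Mog* because it holds the other MYRF motif. They are printed 5′ to 3′ on the strand of the gene, with the matches to any of the 7 motifs, or to their reverse complements, in capitals.
Mag (chr7:30914814-30915113, minus strand): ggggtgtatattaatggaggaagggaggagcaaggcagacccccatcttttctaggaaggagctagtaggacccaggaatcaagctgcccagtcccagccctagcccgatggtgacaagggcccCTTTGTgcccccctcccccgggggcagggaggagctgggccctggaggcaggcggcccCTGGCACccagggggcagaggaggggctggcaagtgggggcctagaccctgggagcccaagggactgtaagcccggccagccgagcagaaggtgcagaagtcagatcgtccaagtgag
Cnp (chr11:100574689-100574988, plus strand): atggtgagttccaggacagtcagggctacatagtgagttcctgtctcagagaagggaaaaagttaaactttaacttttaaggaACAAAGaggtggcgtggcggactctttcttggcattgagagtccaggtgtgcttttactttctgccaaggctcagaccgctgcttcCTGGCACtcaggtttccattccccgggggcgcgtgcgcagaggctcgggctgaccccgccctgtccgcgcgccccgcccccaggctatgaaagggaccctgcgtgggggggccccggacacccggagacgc
Opalin (chr19:41077064-41077363, minus strand): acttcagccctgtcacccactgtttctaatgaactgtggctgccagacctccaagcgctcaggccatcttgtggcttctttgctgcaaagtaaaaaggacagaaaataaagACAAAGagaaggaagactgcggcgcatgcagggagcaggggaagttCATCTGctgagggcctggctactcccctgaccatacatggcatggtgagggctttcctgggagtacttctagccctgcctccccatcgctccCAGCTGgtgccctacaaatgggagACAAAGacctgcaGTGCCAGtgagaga
Mobp (chr9:120149492-120149791, plus strand): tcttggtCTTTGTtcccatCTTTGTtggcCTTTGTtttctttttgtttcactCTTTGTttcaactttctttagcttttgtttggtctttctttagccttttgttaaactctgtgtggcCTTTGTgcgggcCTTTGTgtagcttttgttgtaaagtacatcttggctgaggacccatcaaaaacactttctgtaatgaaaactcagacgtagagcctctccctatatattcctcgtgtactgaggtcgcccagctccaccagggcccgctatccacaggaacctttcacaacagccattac
Mog (chr17:37023349-37023648, minus strand): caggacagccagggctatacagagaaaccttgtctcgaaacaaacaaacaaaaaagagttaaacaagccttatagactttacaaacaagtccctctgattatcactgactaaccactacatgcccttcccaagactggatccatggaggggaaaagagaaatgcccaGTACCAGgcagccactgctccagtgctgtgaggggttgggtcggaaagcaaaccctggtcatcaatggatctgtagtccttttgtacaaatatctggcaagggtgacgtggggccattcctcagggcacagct

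*Mag*, *Cnp* and *Opalin* each held both an ACAAAG and a CTGGCAC. In the *Mag* window the SOX motif began 126 bases and the MYRF motif 68 bases before the start site, and in the *Cnp* window they began 167 and 81 bases before it. In the *Opalin* window a CTGGCAC on the opposite strand lay 36 bases after the start site, close to an ACAAAG that began 23 bases after it. The E-box CAGCTG of this window lay at the start site and CAGATG 93 bases before it. *Mobp* held 6 copies of ACAAAG, all on the opposite strand and all between 243 and 120 bases before the start, in a window that reads as a run of CTTTGT repeats. *Mog* held a CTGGTAC 83 bases before its start. Over the 32851 promoter windows of the same length, 18.7% held ACAAAG, 5.01% CTGGCAC, 2.24% CTGGTAC, 17.2% CAGATG and 16.3% CAGCTG. No window of the 8 genes held ACAATG (12.6% of all windows) or TATAAA (13.6%), and those of *Mal*, *Cldn11* and *Ugt8a* held none of the 7 motifs. A match of this kind is a description of the letters and not a binding site. In fold change, *Mobp* (with matches) and *Mal* (without) were the 2 highest and *Mag* and *Opalin* (both with matches) the 2 lowest. None of these differences was called, and a link between matches and fold changes was not tested.

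The other genes of the oligodendrocyte were read from lists chosen by role. Of 30 further myelin and mature oligodendrocyte genes, 0 were called in either direction, 23 had a negative log2 fold change and 7 a positive one, and the median was -0.09. *Ermn*, a cytoskeletal protein gene of the oligodendrocyte, was at -0.08 on the log2 scale. *Fa2h* and *Gal3st1*, which hydroxylate and sulfate myelin lipids, were at -0.18 (edgeR adjusted p = 0.492) and -0.10, and *Aspa*, the aspartoacylase that frees acetate in oligodendrocytes, was at -0.12. In this list 9 of 30 genes had an unadjusted p under 0.05 in edgeR, 8 of them lower in E861A, beside 9.01% of all genes tested, and 5 of 30 had no overlap between genotypes, all lower in E861A, beside 6.81% of all genes tested. These 5, named after their values were seen, were *Hapln2* (log2 fold change -0.26, edgeR adjusted p = 0.215), a link protein of nodes, *Anln* (-0.25, edgeR adjusted p = 0.279), *Gjb1* (-0.25), *Cd9* (-0.20) and *Plekhb1* (-0.04). With the replicate block, under which 1.16% of all genes tested were called, 2 of the 30 genes were called, *Anln* as lower (-0.25, edgeR adjusted p = 0.0262) and *Apod* as higher (0.19, edgeR adjusted p = 0.0179) in E861A. The pairs of this block were read from these same data. Without E861A replicate 1 the list had 20 negative and 10 positive log2 fold changes and a median of -0.04. In that fit 4 genes of the list had an unadjusted p under 0.05 in edgeR, beside 1099 of 13675 genes tested.

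The transcription factors of the lineage likewise gave 0 calls among 12 genes in edgeR, and 0 at an unadjusted p under 0.05, with 9 negative and 3 positive log2 fold changes and a median of -0.06. *Sox10* was at -0.12, *Olig1* at -0.04 and *Olig2* at -0.09 on the log2 scale, each with overlapping genotypes. *Myrf*, the factor that starts the myelin programme, was at 48.3, 56.1 and 50.7 CPM in E861A and at 56.6, 57.1 and 56.3 CPM in wild type. Its groups did not overlap, by a margin of 56.1 against 56.3 CPM, and its log2 fold change of -0.13 ± 0.06 did not pass (SE, edgeR adjusted p = 0.561). Earlier stages gave 0 calls among 9 premyelinating genes (median -0.04) and 0 among 11 progenitor genes (median -0.01), also with 0 at an unadjusted p under 0.05, and *Pdgfra* was at -0.06 and *Cspg4* at -0.09. The summed level of the progenitor genes was 676 to 693 CPM in E861A and 663 to 699.5 CPM in wild type.

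Genes that serve the sheath were also without a call. Of 16 genes of cholesterol, fatty acid and sphingolipid synthesis, 0 had an unadjusted p under 0.05, 15 had a negative and 1 a positive log2 fold change, and the median was -0.06. Without E861A replicate 1 these were 12 and 4 genes, with a median of -0.03. Of 10 genes of the node, paranode and juxtaparanode, where axon and myelin meet, 1 had an unadjusted p under 0.05 (3 without E861A replicate 1), 8 were negative and 2 positive, and the median was -0.06. Among them *Cntnap1*, the axonal paranodal protein, was at -0.10 (edgeR adjusted p = 0.563) and *Nfasc*, with both glial and neuronal isoforms, at 0.03. The 10 Schwann cell genes summed to 112 to 114 CPM in E861A and 111 to 125 CPM in wild type, of which 4 were tested and 0 called.

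**Figure D5:**
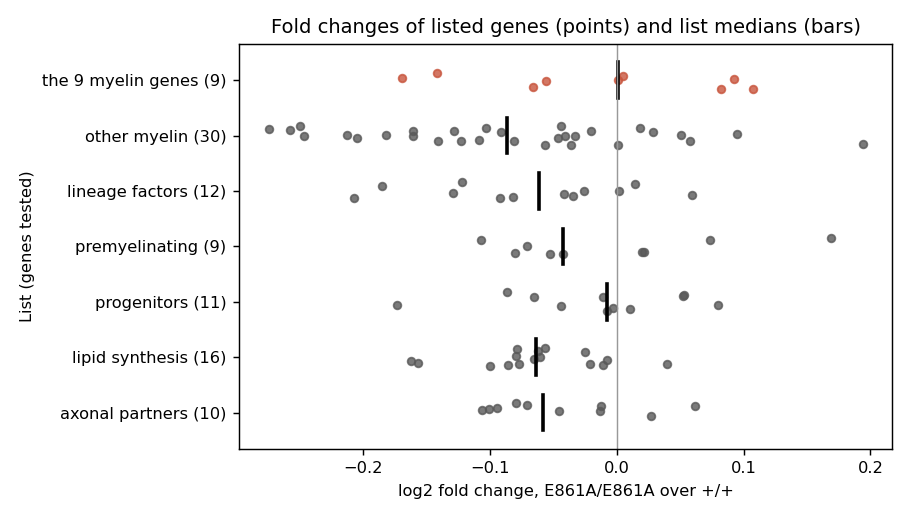
Fitted log2 fold changes (E861A over wild type) of each tested gene of the oligodendrocyte and axonal lists (points, moved vertically so that they can be told apart) with the median of each list (bars). The median of the 9 myelin genes is 0.0013, while those of the other lists lie between -0.09 and -0.01.

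Markers of other cells were read from lists of the same kind, and their part in the values above was not tested. Summed neuronal markers were at 5036 to 5213 CPM in E861A and 5324 to 5338 CPM in wild type, and summed astrocyte markers at 5584 to 5866 and 4979 to 5237 CPM. Summed microglial markers were at 145 to 157 and 159.6 to 163 CPM, endothelial markers at 146 to 179.9 and 184 to 215 CPM, and choroid plexus markers at 228 to 339 and 396 to 417 CPM. The genotypes did not overlap in these 5 sums, but without the most abundant gene of each list (an alternative chosen after seeing the data) only the neuronal sum was still apart, at 3302 to 3495 and 3525 to 3573 CPM. The astrocyte sum without the glutamate transporter gene *Slc1a2* was 1486 to 1605 and 1492 to 1556 CPM, and the choroid plexus sum without *Ttr*, which encodes transthyretin, was 45.1 to 53.1 and 52.1 to 55.5 CPM. With all 6 libraries the edgeR test as reported called 0 genes of these 5 lists (smallest adjusted p 0.0817, in the endothelial list). At an unadjusted p under 0.05 there were 4 of 12 neuronal, 1 of 8 astrocyte, 1 of 7 microglial, 4 of 7 endothelial and 2 of 7 choroid plexus genes, beside 9.01% of all genes tested.

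Single genes of these lists were called under alternatives. With the replicate block, under which 1.16% of all genes were called, the neurofilament genes *Nefm* and *Nefh*, the glucose transporter gene *Slc2a1* of endothelium and *Ttr* were called as lower and *Slc1a2* as higher in E861A. These calls too rest on pairs read from the same data. DESeq2 called *Slc1a2* as higher and the endothelial *Flt1* and *Slc2a1* as lower, and edgeR with filterByExpr called *Flt1*. With no filter on low counts, 1.28% of all genes tested were called in edgeR. Among them *Nefm*, *Nefh*, *Cldn5*, *Pecam1*, *Flt1*, *Slc2a1* and *Ttr* were lower and *Slc1a2* was higher in E861A. Without E861A replicate 1, edgeR called *Ttr* as lower (log2 fold change -0.33, adjusted p = 0.00458). The median log2 fold change was then -0.21 for the endothelial list (-0.32 with all libraries), 0.08 for the astrocyte list (0.02) and -0.02 for the microglial list (-0.07). For the neuronal list it was -0.06 (-0.08), with 9 negative and 3 positive values (11 and 1 with all libraries). In this fit 2 endothelial, 0 microglial and 3 neuronal genes had an unadjusted p under 0.05, beside 1099 of 13675 genes tested. Without E861A replicate 2, edgeR called *Ttr*, *Flt1*, *Slc2a1* and *Pecam1* as lower, and without wild-type replicate 2 *Flt1*. The sum of 5 blood genes overlapped, at 107 to 132 CPM and 116 to 226 CPM. The 226 CPM was in wild-type replicate 2, the library without which *Mal* was called. The part of the blood signal in the *Mal* and *Mobp* values was not tested. Of 11 genes of the caudal brain, including the hindbrain and spinal *Hox* genes, 1 was tested (*Slc6a5*) and 0 called. Their sum was 28.2 to 36.8 CPM in E861A and 37.1 to 41.4 CPM in wild type. Most of it was *Slc6a5*, at 25.7 to 31.35 and 32.5 to 35.3 CPM (log2 fold change -0.265, edgeR unadjusted p = 0.00143, adjusted p = 0.1685). Without this gene the sums overlapped, at 2.54 to 5.40 and 4.04 to 7.08 CPM. With no filter on low counts, *Slc6a5* and 4 blood genes were called as lower in E861A. The summed level of the 9 myelin genes overlapped between genotypes with *Mbp* and without it, at 1562 to 1681 and 1463 to 1779 CPM in the latter case.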

How the data were processed

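RNA-seq libraries were prepared from ribosome-depleted RNA of whole brain with a stranded kit and sequenced as paired 75 bp reads on 1 run. The authors trimmed reads (Trimmomatic 0.36), aligned them to the mouse genome (mm9) with STAR 2.5.2a and deposited raw counts per gene; tools and build are from the submitters' processing notes, and the strand column was not stated. The authors' CPM tables and their own fold changes and false discovery rates were not used, and 0 columns lacked a sample. Gene positions are from GENCODE vM1, which held all 37310 identifiers.

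CPM were computed from column totals, and those given are not TMM-scaled. The 13649 genes that reached 2 CPM in each library of at least 1 genotype were scaled by TMM (factors 0.986 to 1.02) and compared with the edgeR 4.0.16 quasi-likelihood test in R 4.3.3, without covariates, with Benjamini-Hochberg adjustment of p. Genes with an adjusted p under 0.05 are referred to as called. SE is the absolute log2 fold change over the square root of F. The fit was tested on simulated data. Mitochondrial genes took 11.0% to 13.8% of counts.

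The 9 genes and all lists were chosen with earlier results of these data known. All 9 are named, with listed genes chosen by role (some are not reported here), any listed gene called in the test as reported, and the 10 genes most alike in profile. Of 17 listed lipid synthesis genes, 16 were matched and 1 is not analysed here. Deviations from genotype means had a positive r over genes between libraries with the same replicate number (0.23, 0.34 and 0.12). Between libraries of the 2 genotypes with different numbers this r ran from -0.26 to 0.05. For this reason the replicate block, an alternative fit, took same-numbered libraries as pairs. The test as reported did not pair them. The labels do not say what such libraries share, and the pairing was read from these same data. Calls under the block therefore rest on pairs chosen after the data were seen. Alternatives were DESeq2 1.42.0, limma-voom (limma 3.58.1), other scalings and filters, the replicate block and the omission of each library. No molecular identifiers were used, so counts include amplification duplicates.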

Additional observations from a re-analysis of the deposited data

How the results depend on the processing

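Of 126 log2 fold changes (9 myelin genes under 14 alternative fits), 117 kept their direction, and 13 of the 14 fits called 0 of the 9 genes. The exception was the fit without wild-type replicate 2, with 1 gene called (*Mal*, log2 fold change 0.26, edgeR adjusted p = 0.0476). The signs that turned were those of *Mbp* (-0.0057 with filterByExpr, -0.0092 with no filter, -0.0177 without E861A replicate 2 and -0.0161 without wild-type replicate 3), *Cnp* (-0.0018, -0.0051, -0.0524 and -0.068 in the same fits) and *Ugt8a* (0.042 without E861A replicate 1). With libraries left out in turn, the log2 fold change ranged from -0.0177 to 0.0215 for *Mbp*, -0.068 to 0.0829 for *Cnp*, 0.0122 to 0.2638 for *Mal*, 0.0192 to 0.2559 for *Mobp*, 0.0061 to 0.1422 for *Mog*, -0.2209 to -0.0975 for *Mag*, -0.1329 to -0.0064 for *Cldn11*, -0.1251 to 0.042 for *Ugt8a* and -0.3338 to -0.0084 for *Opalin*. The median over the 9 genes stayed between -0.0524 and 0.029, and the log2 ratio of the summed CPM between -0.0077 and 0.0747. Calls over all genes, 69 in the test as reported, were 110 with filterByExpr, 376 with no filter (218 higher and 158 lower), 42 where 2 CPM was required in all 6 libraries and 42 to 113 without 1 library (42 without E861A replicate 3, 113 without E861A replicate 2, 108 without wild-type replicate 2), which changes which genes or samples enter; DESeq2 called 82. Under the replicate block, which treats same-numbered libraries as pairs read from these same data, 158 genes were called (103 higher and 55 lower), and 0 of the 9 genes. Among the 30 other myelin genes, 20 to 27 were negative without 1 library, against 23, and calls were 0 except for 2 with no filter, 2 with the block and 1 without E861A replicate 2 (alternatives chosen after seeing the data). Lineage genes among the 100 most alike were 1 with Spearman's correlation and 0 to 2 without 1 library, against 2; the cause was not tested. With 3 libraries per genotype, differences inside the 95% intervals given remain possible.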
